A study of Mus musculus with 6 samples.

Results

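The NF-κB genes described here are 4 subunits of the transcription factor (Nfkb1, Nfkb2, Rela and Relb) and 6 of its feedback inhibitors and targets (Nfkbia, Nfkbie, Tnfaip3, Tnf, Birc3 and Icam1). They were taken by symbol, 10 genes of 20756 in the table, and each symbol matched 1 mouse Ensembl identifier on GRCm38. All 10 were measured, and all 10 passed the filter on low values (1 CPM in 3 or more samples), as did 12207 genes in all. Tnf was under 1 CPM in control replicate 1 and passed only through the double-guide libraries described below. Expression was profiled by 3′ tag sequencing in C57BL/6 material the labels call MTO, a name they do not spell out. The 3 control libraries carried the guide sgC. The 3 others, labelled sgPrkci/Prkcz and called double-guide libraries here, carried guides to Prkci and Prkcz, the genes of protein kinases C iota and zeta. All 6 were untreated and grew in advanced DMEM/F12 with B-27 and 50 ng/ml human EGF. The growth notes also cover injection of cells under the skin of mice, and the series' design mentions tumors and 4 biological replicates; the table used here carries an in vitro mark and 3 libraries of each genotype. Cut sites, and whether a genotype was a pool or 1 clone, are not stated. The individual labels do not tie replicates to separate cultures, so p-values reflect only the spread between these libraries, which may be technical.

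NF-κB dimers are held in the cytoplasm by inhibitor proteins of the IκB family. Signals such as TNF or interleukin 1 activate the IKK kinase complex, which marks IκB for destruction and frees the dimer to enter the nucleus. The dimer then induces cytokines and adhesion molecules together with its own brakes, among them the IκB genes and the ubiquitin-editing enzyme A20. Nfkb1, Nfkb2, Relb and Rel are themselves known as NF-κB targets, whereas Rela is usually taken as constitutively expressed. Target mRNA is widely used as a readout of the pathway. In gut epithelium the pathway is known for its part in barrier defence and in inflammation-linked cancer. Atypical protein kinases C have been placed in NF-κB signalling through the adaptor p62, the product of Sqstm1.

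The library totals were 2821908 to 3048170 reads in sgC and 1543826 to 1808292 in sgPrkci/Prkcz, so depth followed genotype. In bulk RNA, fewer cells of a type and less RNA per cell cannot be told apart. The guide target Prkcz fell from 5.64 ± 0.706 to 2.09 ± 1.71 CPM (reads per 1000000; SD, n = 3), a call lost in 4 of 19 alternatives (adjusted p = 0.00967 by limma, and 0.0611 without double-guide replicate 3). Prkci stood at 54.9 ± 8.60 and 54.4 ± 0.686 CPM (adjusted p = 0.986), and a 3′ tag does not check an edit elsewhere in the gene. Epithelial markers summed to between 3529 and 4044 CPM in sgC and between 3906 and 4278 in sgPrkci/Prkcz, with all 7 of 7 present. Of 16 leukocyte markers 6 were in the table, and without Cd68, a lysosomal gene that other cells also express, they summed to at most 1.77 CPM in sgC and 2.27 in sgPrkci/Prkcz. With Cd68 the sums were 5.91 to 7.71 and 8.85 to 14.3 CPM, higher in every double-guide library, and their part in the results was not tested. Ptprc, the defining leukocyte gene, had 2 reads over the controls and 5 over the double-guide libraries. Fibroblast markers summed to at most 2.35 CPM and endothelial ones to at most 0.335 CPM in any library, with Lum, Pecam1 and Cdh5 at 0 in all. The 4 Y-linked genes examined had 1 read over the controls and 380 over the double-guide libraries, and Xist had 4 and 1, so the genotypes also differed in Y-linked transcripts, a difference that cannot be told apart from the guides.

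Among the 10 genes, 5 rose in the double-guide libraries and 0 fell: Nfkbia, Tnfaip3, Tnf and Birc3, with ratios of pooled reads from 3.31 to 8.89, and the subunit Rela, with a ratio of 1.37. A rise in this sense was called for 11.4% of all tested genes and a fall for 23.8% (limma, adjusted p under 0.05). Tnf is counted here although it passed the filter only through the double-guide libraries, where it is high. In edgeR 7 of the 8 members tested rose and 0 fell, where 19.9% of genes were called up and 18.2% down; DESeq2 called 5 up and 0 down, where 12.8% and 9.29% were called. Once all changes were centred on the median gene, 7 rose and 0 fell, beside 17.4% up and 14.4% down. At an unadjusted p under 0.05, limma had 6 members up and 0 down. The share of all tested genes at that looser threshold was not counted, so this count has no background beside it. In 6 members, Rela, Relb, Nfkbia, Tnfaip3, Tnf and Birc3, every double-guide library lay above every control, a separation seen in 15.0% of tested genes. The other 4 overlapped. The log2 fold change of all tested genes, sgPrkci/Prkcz minus sgC, had a median of -0.17, so a change relative to the median gene is 0.17 higher than the value given. Fold changes are on the log2(CPM + 1) scale, which understates those of low genes, and p-values are Benjamini-Hochberg adjusted and from limma unless another tool is named.

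**Figure D1:**
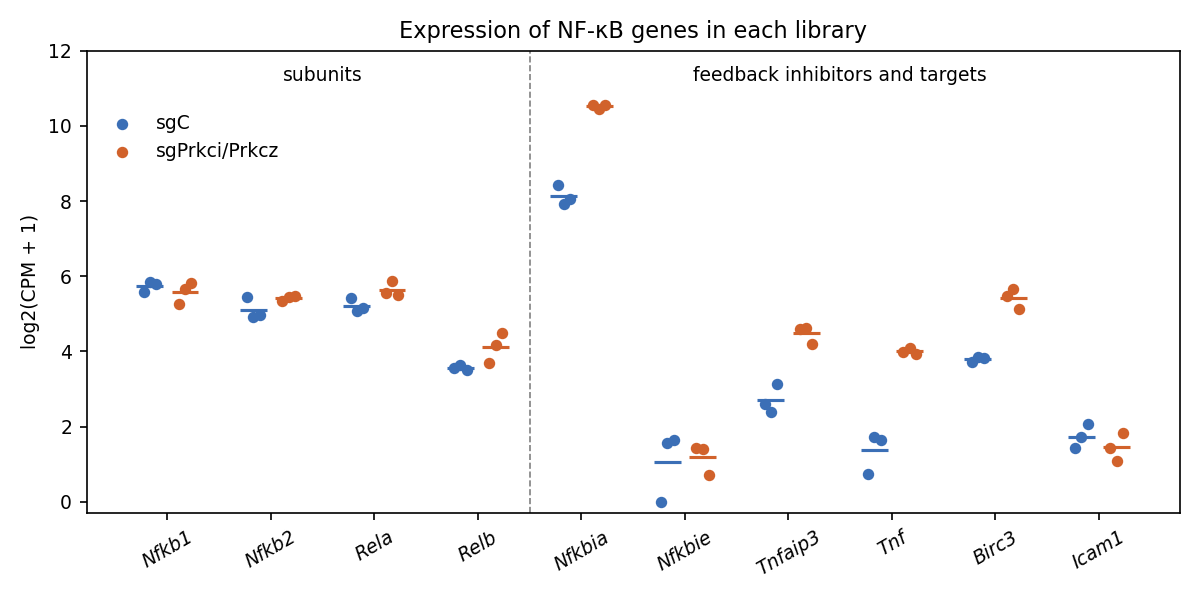
Expression of each NF-κB gene in each of the 6 libraries, as log2(CPM + 1). Points are libraries and bars are group means (n = 3 per genotype). The groups separate widely for Nfkbia, Tnfaip3, Tnf and Birc3, narrowly for Rela and Relb, and overlap for Nfkb1, Nfkb2, Nfkbie and Icam1.

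Sequence upstream of the start sites is shown for the 4 feedback and target genes that rose, and for Nfkb2 and Nfkbie, which hold a κB match but were not called. The RefSeq promoter table (GRCm38.p6) had entries for 8 of the 10 genes; Nfkb1 and Relb had none. The 250 bases before each annotated start were searched on both strands for the textbook κB consensus of 10 bases, in which overlapping and palindromic matches each count. At least 1 match was present in 7.25% of all 32851 promoters, in 8.23% of 27025 genes over their annotated starts, and in 4 of the 8 genes here, namely Nfkbia, Tnfaip3, Nfkb2 and Nfkbie. Genes with several starts, such as Nfkb2 with 3, have more chances of a match. Each stretch below reads 5′ to 3′ along the gene and ends at the base before the start site, and capitals mark the κB matches. The stretches are chr12:55492648-55492897 (minus strand) for Nfkbia, chr10:19015411-19015660 (minus) for the first listed start of Tnfaip3, chr17:35202008-35202257 (minus) for Tnf, chr9:7873171-7873420 (minus) for Birc3, chr19:46304487-46304736 (plus) for the first start of Nfkb2 and chr17:45555450-45555699 (plus) for Nfkbie.
Nfkbia: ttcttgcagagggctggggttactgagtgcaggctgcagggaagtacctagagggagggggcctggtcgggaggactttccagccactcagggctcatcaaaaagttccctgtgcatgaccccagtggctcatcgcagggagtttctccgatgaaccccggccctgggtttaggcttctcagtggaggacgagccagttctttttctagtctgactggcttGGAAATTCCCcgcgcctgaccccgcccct
Tnfaip3: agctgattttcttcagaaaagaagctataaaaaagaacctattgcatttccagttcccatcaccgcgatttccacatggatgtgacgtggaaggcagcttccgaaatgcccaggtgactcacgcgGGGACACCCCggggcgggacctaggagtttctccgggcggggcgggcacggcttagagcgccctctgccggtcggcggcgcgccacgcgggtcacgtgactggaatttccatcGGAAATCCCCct
Tnf: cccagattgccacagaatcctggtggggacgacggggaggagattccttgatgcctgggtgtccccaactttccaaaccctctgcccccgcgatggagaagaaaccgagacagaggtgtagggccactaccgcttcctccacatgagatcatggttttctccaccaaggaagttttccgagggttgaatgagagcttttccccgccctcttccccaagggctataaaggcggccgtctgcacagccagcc
Birc3: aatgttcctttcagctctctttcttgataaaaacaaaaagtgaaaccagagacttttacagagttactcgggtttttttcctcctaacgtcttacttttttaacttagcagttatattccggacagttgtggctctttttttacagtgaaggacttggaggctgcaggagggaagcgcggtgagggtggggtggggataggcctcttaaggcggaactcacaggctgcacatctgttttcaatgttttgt
Nfkb2: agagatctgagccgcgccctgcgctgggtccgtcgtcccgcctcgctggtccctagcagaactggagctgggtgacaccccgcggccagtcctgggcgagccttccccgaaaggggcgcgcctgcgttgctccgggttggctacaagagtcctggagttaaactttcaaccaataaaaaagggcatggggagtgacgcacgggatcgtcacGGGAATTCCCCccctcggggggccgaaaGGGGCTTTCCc
Nfkbie: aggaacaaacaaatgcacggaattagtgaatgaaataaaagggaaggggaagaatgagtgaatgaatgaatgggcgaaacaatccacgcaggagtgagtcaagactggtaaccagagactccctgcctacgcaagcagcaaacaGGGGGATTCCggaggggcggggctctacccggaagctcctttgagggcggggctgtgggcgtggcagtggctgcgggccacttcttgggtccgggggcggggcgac

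The Nfkbia match, GGGAATTTCC on the minus strand of the printed stretch, lies 29 to 20 bases before the start. Tnfaip3 has GGGGATTTCC, also on the opposite strand, 12 to 3 bases before that start, and a further site 125 to 116 bases before it that matches on both strands. Its other annotated start has no match. Nfkb2 has matches at each of its 3 annotated starts, including the palindrome GGGAATTCCC from 39 to 30 bases before the first. Nfkbie has GGGGGATTCC from 106 to 97 bases before its start. The windows of Tnf, Birc3, Rela and Icam1 hold no match to these letters. Matches thus occurred both in genes that rose and in genes that were not called, and members that rose had windows with and without one.

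Rela rose and Nfkb1, Nfkb2 and Relb did not pass the test, with a median log2 fold change of 0.37 over the 4, beside -0.17 over all tested genes. Nfkb1 (ENSMUSG00000028163, chromosome 3, 135584655 to 135691547), which encodes the precursor p105 and its DNA-binding product p50, had 46.9, 57.1 and 54.9 CPM in the controls and 37.5, 49.8 and 55.1 in the double-guide libraries. The ranges overlapped, with the lowest value in double-guide replicate 1. Its log2 fold change was -0.17 ± 0.15 (SE; 95% interval -0.47 to 0.13; limma, Benjamini-Hochberg adjusted p = 0.398), which is 0.00 relative to the median of all genes. A same-strand gene model without a known product, Gm43430, lies within Nfkb1 and had 71 reads.

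Rela (ENSMUSG00000024927, chromosome 19, 5637483 to 5648130) encodes p65, the transactivating partner of p50 in the canonical dimer. It had 41.6, 32.8 and 34.7 CPM in the controls and 46.0, 58.1 and 44.0 in the double-guide libraries. The groups did not overlap, but the lowest double-guide value was close to the highest control value. The rise was 0.43 ± 0.15 on the log2 scale (adjusted p = 0.0254) and 0.59 relative to the median of all genes. The call was held in 16 of 20 alternatives and lost without control replicate 2, control replicate 3 or double-guide replicate 2 (adjusted p = 0.123, 0.0702 and 0.154) and in limma without a variance trend (0.101). The 6 nearest tested genes had a median log2 fold change of 0.34, and 1 of them, the acetyltransferase gene Kat5, rose too (0.67).

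Nfkb2 and Relb encode the pair of the noncanonical arm, the precursor p100 and its partner RelB. Nfkb2 (ENSMUSG00000025225, chromosome 19, 46304320 to 46312385) had 42.6, 29.2 and 30.5 CPM in the controls and 39.8, 42.6 and 43.4 in the double-guide libraries. The ranges overlapped through control replicate 1 alone, and without that library the log2 fold change was 0.48 (adjusted p = 0.0249) instead of 0.31 ± 0.16 (0.127). This gene was called in 6 of 20 alternatives. Relb (ENSMUSG00000002983, chromosome 7, 19606217 to 19629438) had 10.7, 11.5 and 10.3 CPM in the controls and 11.9, 17.1 and 21.4 in the double-guide libraries. Its groups did not overlap, though double-guide replicate 1 stood next to the controls, and without it the adjusted p was 0.0164. Its log2 fold change was 0.56 ± 0.23 (adjusted p = 0.0609), on 96 reads in the controls and 85 in the double-guide libraries. Relative to the median of all genes the changes were 0.48 for Nfkb2 and 0.72 for Relb. Both passed the test when that median was set to 0 (adjusted p = 0.0198 and 0.0165) and in edgeR on recovered reads (0.0301 and 0.0115), and neither did in DESeq2 (0.142 and 0.0876). Whether these subunits are called therefore depended on the scaling and the tool.

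Of the 6 feedback inhibitors and targets, 4 rose and 2 did not pass the test, and their median log2 fold change was 1.70. Nfkbia (ENSMUSG00000021025, chromosome 12, 55489410 to 55492647) encodes IκBα, the inhibitor that retrieves NF-κB from the nucleus. It had 341, 242 and 267 CPM in the controls and 1515, 1397 and 1497 in the double-guide libraries. Every double-guide library lay far above every control. The log2 fold change was 2.38 ± 0.09 (adjusted p = 5.53e-16), or 2.55 relative to the median of all genes, and the gene ranked 61 of 12207 by size of rise. Over pooled reads (2509 in the controls, 7504 in the double-guide libraries) the ratio of CPM was 5.18, with an exact 95% interval of 4.95 to 5.42 that covers counting error only.

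Tnfaip3 (ENSMUSG00000019850, chromosome 10, 19000910 to 19015657) encodes A20, which edits ubiquitin chains on signalling intermediates upstream of IKK. Its levels were 5.03, 4.26 and 7.80 CPM in the controls and 23.3, 23.8 and 17.5 in the double-guide libraries. The groups were well apart, with double-guide replicate 3 the lowest of its group. The log2 fold change was 1.77 ± 0.25 (adjusted p = 2.02e-06), and the pooled read ratio was 3.84 (95% interval 2.73 to 5.48) on 50 and 111 reads.

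Birc3 (ENSMUSG00000032000, chromosome 9, 7848699 to 7873186) encodes the ubiquitin ligase cIAP2, which acts at the TNF receptor and limits cell death. It had 12.1, 13.5 and 13.1 CPM in the controls, a tight group, and 43.2, 49.2 and 34.3 in the double-guide libraries, all well above. The log2 fold change was 1.63 ± 0.18 (adjusted p = 3.66e-08), and the pooled read ratio was 3.31 (95% interval 2.63 to 4.19). Its adjacent paralog Birc2, encoding cIAP1, had a log2 fold change of 0.12 (adjusted p = 0.650), and the neighbour Yap1, a Hippo effector, -0.07 (0.718). The 6 nearest tested genes had a median log2 fold change of 0.03, and 1 of them, the protease gene Mmp7, fell (-0.74). Whether tags can be shared between Birc2 and Birc3 was not tested.

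Tnf (ENSMUSG00000024401, chromosome 17, 35199381 to 35202007), the cytokine that both induces and is induced by NF-κB, was near the floor in the controls. It had 2, 7 and 6 reads in the controls (0.670, 2.30 and 2.13 CPM) and 26, 29 and 22 in the double-guide libraries (14.8, 16.0 and 14.3 CPM). All double-guide libraries lay close together and far above the controls. The log2 fold change was 2.63 ± 0.31 (adjusted p = 1.13e-07), a value that understates the change of a low gene because of the added 1. The pooled read ratio was 8.89, with a 95% interval of 5.07 to 16.6. Its neighbours of the same cytokine family, Lta and Ltb, had 4 and 1 reads in the controls and 1 and 2 in the double-guide libraries, at or near the floor of 3 reads.

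Nfkbie and Icam1 did not pass the test, on few reads. Nfkbie (ENSMUSG00000023947, chromosome 17, 45555703 to 45563169), which encodes the inhibitor IκBε, had 0, 6 and 6 reads in the controls and 3, 3 and 1 in the double-guide libraries. Icam1 (ENSMUSG00000037405, chromosome 9, 21015985 to 21028817), a leukocyte adhesion molecule, had 5, 7 and 9 reads and 3, 2 and 4. In both genes the groups overlapped in CPM, and 0 of 17 alternatives called either. The pooled read ratio of Nfkbie was 1.01 with a 95% interval of 0.337 to 2.78, and that of Icam1 was 0.742 with an interval of 0.299 to 1.69. Both upper bounds lie under the lower bounds for Nfkbia and Tnf, while the Nfkbie interval overlaps those of Tnfaip3 and Birc3. Smaller rises in these genes were not detectable at this depth.

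**Figure D2:**
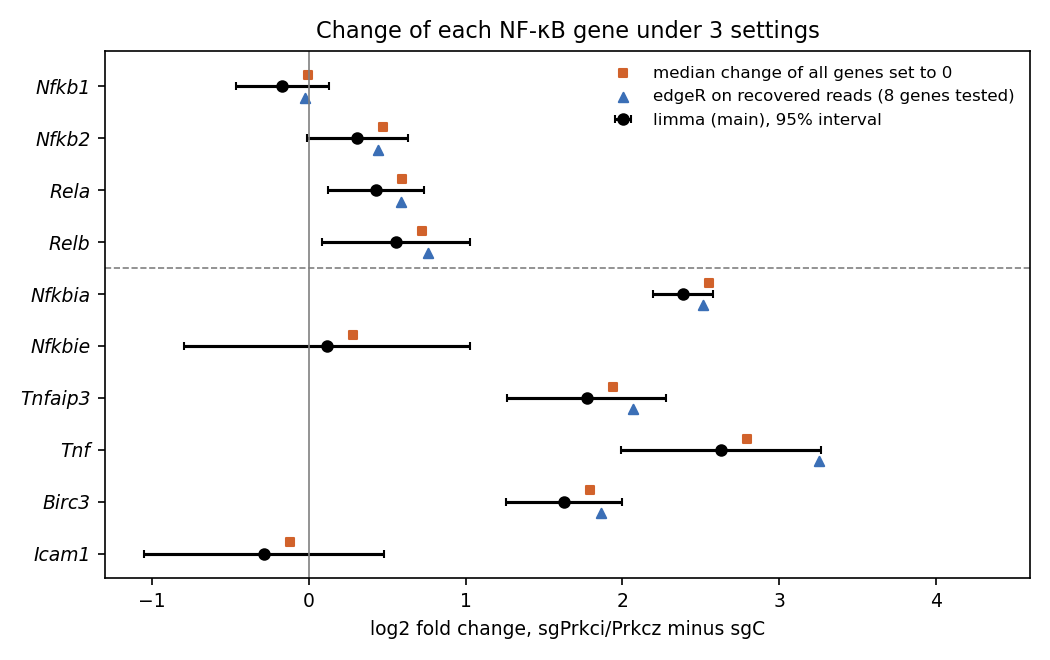
Log2 fold change of each NF-κB gene, sgPrkci/Prkcz minus sgC. Black points and bars are limma estimates with 95% intervals (n = 3 per genotype), squares are centred on the median gene, and triangles are edgeR on recovered reads, which tested 8 of the 10 genes. Nfkbia, Tnfaip3, Tnf and Birc3 lie above 1 in each setting shown, and the subunits lie below 1.

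Set side by side, the subunits had log2 fold changes from -0.17 to 0.56 and the feedback genes and targets from -0.28 to 2.63. Averaged within each library relative to the sgC mean, the 4 subunits stood at 0.06, 0.38 and 0.40 in the double-guide replicates on the log2(CPM + 1) scale. The 6 feedback genes and targets stood at 1.44, 1.42 and 1.26. The control libraries ran from -0.05 to 0.09 for the subunits and from -0.32 to 0.26 for the feedback genes and targets. In each double-guide library the mean over the feedback genes thus exceeded that over the subunits. The 4 that rose exceeded 98.9% or more of tested genes by log2 fold change, and Rela, Relb and Nfkb2 exceeded 88.2%, 91.6% and 83.4%. These are descriptions of genes selected for their roles, and the difference between the 2 sets was not tested.

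**Figure D3:**
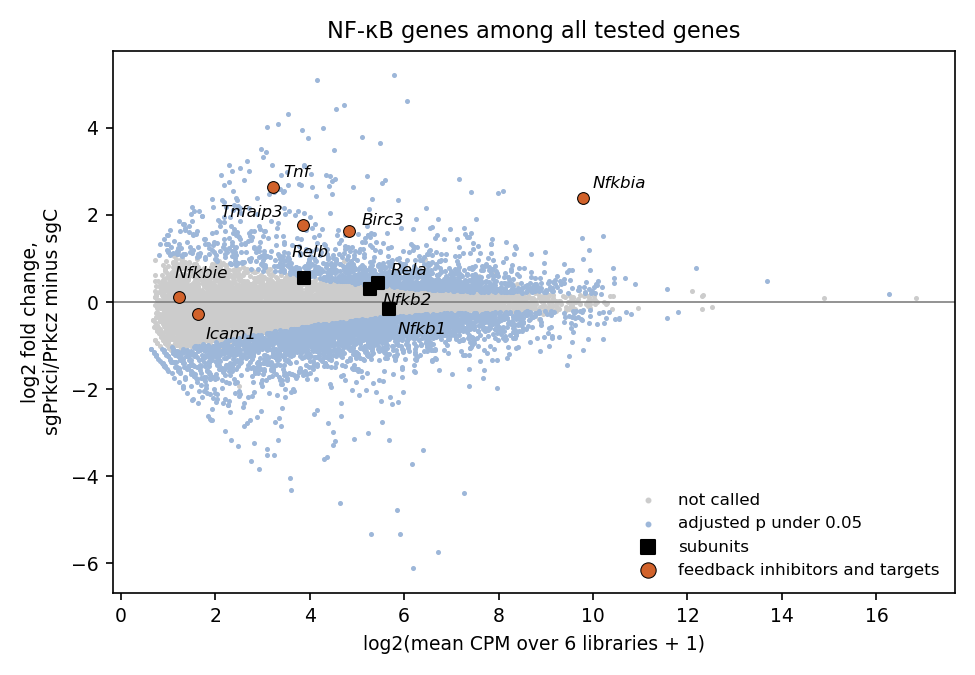
Log2 fold change against mean expression for the 12207 tested genes, with the NF-κB subunits as black squares and the feedback inhibitors and targets as orange circles. Grey genes were not called and blue genes had an adjusted p under 0.05 (limma). Nfkbia combines a high mean level with a large rise, while Nfkbie and Icam1 sit at the low end.

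Within 5000000 bases on either side, the median log2 fold change of other tested genes ran from -0.02 around Nfkbia to -0.27 around Nfkb1. With each chromosome's median change removed, Nfkbia, Tnfaip3, Tnf and Birc3 had log2 fold changes of 2.46, 2.02, 2.73 and 1.74, and all 4 were still called. The loci of 2 members overlap genes on the opposite strand, Psd (1 read) and AC114539.1 at Nfkb2 and Gm47079 at Icam1. Neither AC114539.1 nor Gm47079 is in the table analysed here. The strand setting of the counting is not given in the sources used here.

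Beyond the members, 6 further genes were tested: Rel, Nfkbib, Nfkbiz and Bcl3 of the REL and IκB families, and Nkiras1 and Nkiras2, which encode Ras-like proteins that bind IκB. Of these 6, 2 rose and, with limma, 0 fell (edgeR likewise 0, and 0 with p under 0.05 before adjustment). Over all tested genes limma called 11.4% up and 23.8% down, and edgeR 19.9% and 18.2%. With so few genes, 0 falls says little. Nfkbiz, encoding the nuclear IκBζ that is itself an induced gene, rose from 24.2 ± 1.15 to 57.1 ± 4.28 CPM, or 1.21 in log2 (adjusted p = 1.61e-07). Bcl3, a nuclear IκB protein that partners p50 and p52 dimers, rose by 0.67 (adjusted p = 0.00187), a call lost in limma without a variance trend (0.0727), and its groups overlapped. The fifth subunit gene, Rel, had 22.1, 16.7 and 16.3 CPM in the controls and 15.9, 21.0 and 20.7 in the double-guide libraries, a log2 fold change of 0.06 (adjusted p = 0.841), though it was called with its chromosome's median removed (0.51, 0.0476). The inhibitor gene Nfkbib, encoding IκBβ, had a log2 fold change of -0.17 (0.518).

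Partners of A20 and other brakes rose in 6 of 12 tested cases and 1 fell, with a list median of 0.18, where 11.4% of all tested genes rose and 23.8% fell. Tnip3, which encodes the A20-binding protein ABIN-3, had 6.03, 4.26 and 7.09 CPM in the controls and 36.4, 30.4 and 44.0 in the double-guide libraries. The groups were far apart, and the log2 fold change was 2.49 (adjusted p = 5.58e-10). Tnip1 (ABIN-1) rose from 72.8 ± 14.2 to 126 ± 22.4 CPM (0.79), and Zc3h12a, encoding an RNase that degrades cytokine mRNA, from 1.59 ± 0.242 to 6.21 ± 1.00 CPM (1.47). Sharpin, a subunit of the linear ubiquitin ligase, fell by 0.66, but its groups overlapped, and 9 of 20 alternatives lost the call, among them edgeR (adjusted p = 0.0640) and leaving out double-guide replicate 1 or 3 (0.0776 and 0.0577), and with its chromosome's median removed the change was -0.28 (0.339).

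Of 13 tested IKK and upstream kinase genes 1 rose and 3 fell, which is near the shares over all tested genes (11.4% up and 23.8% down). After centring on the median gene 3 rose and 1 fell, where 17.4% of all genes rose and 14.4% fell. Ikbkb, encoding the IKKβ subunit that phosphorylates IκB, fell from 73.2 ± 7.76 to 45.8 ± 6.93 CPM, or -0.67 in log2 (adjusted p = 2.92e-04). The change was -0.27 with its chromosome's median removed, where it was no longer called (adjusted p = 0.127). Ikbke, an inducible IKK-related kinase gene, rose from 2.27 ± 1.53 to 7.23 ± 0.471 CPM (1.45). The falls of Ikbkg (-0.35), the regulatory subunit NEMO, and Map3k3 (-0.47), a kinase upstream of IKK, were lost in most alternatives. They were called in only 4 and 9 of 20, and neither in DESeq2 (adjusted p = 0.481 and 0.374). Ikbkg was lost in edgeR (0.214) and without control replicate 1, 2 or 3 (0.0910, 0.116 and 0.0613) or double-guide replicate 1 or 2 (0.0838 and 0.0903). With its chromosome's median removed Map3k3 stood at -0.03 (0.917), and Ikbkg at -0.27 (0.124). Map3k3 was also lost in edgeR (0.129) and without control replicate 2 or 3 (0.116 and 0.0585) or double-guide replicate 2 or 3 (0.0770 and 0.0548).

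Among receptors and adaptors, 6 of 23 tested genes rose and 2 fell, beside 11.4% and 23.8% of all tested genes. Centring all genes on their median made this 8 and 0, beside 17.4% and 14.4%. Tirap, a Toll-like receptor adaptor, rose from 41.3 ± 4.72 to 77.7 ± 12.3 CPM (log2 fold change 0.89), Tnfrsf1b, the second TNF receptor, from 23.9 ± 3.59 to 41.4 ± 3.92 (0.77) and the kinase gene Irak2 from 4.63 ± 1.58 to 10.4 ± 0.684 (1.05). Tnfrsf1a, the main TNF receptor, stood at 51.3 ± 1.43 and 66.3 ± 4.83 CPM and rose by 0.36 (adjusted p = 0.0241), a call lost without control replicate 1 or 2 (0.0557 and 0.0698) or double-guide replicate 2 or 3 (0.0645 and 0.0731). The fall of Irak4 (-0.39), a receptor-associated kinase gene, was lost without control replicate 1 or 2 (0.0972 and 0.101) or double-guide replicate 1 or 2 (0.116 and 0.0502). With its chromosome's median removed Irak4 stood at -0.0035 (0.991). That of Il1rap (-0.92), an interleukin 1 receptor subunit, was lost without control replicate 2 or 3 (0.0984 and 0.134) or double-guide replicate 1 or 2 (0.0974 and 0.145). Neither passed after centring on the median gene (0.236 and 0.0909).

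A list of 8 tested genes of the linear ubiquitin ligase, deubiquitinases and related factors, Birc2 among them, had a median log2 fold change of -0.53. In limma 3 fell, beside 23.8% of all tested genes, and 0 rose, beside 11.4%. In edgeR 0 of 7 rose, beside 19.9%, and limma had 0 rises with p under 0.05 before adjustment. With so few genes, 0 rises says little. The falls numbered 2 in edgeR and after centring on the median gene, beside 18.2% and 14.4% of all genes. They numbered 1 in DESeq2, beside 9.29%, and 1 with chromosome medians removed, where 1597 of 12207 genes fell. Otulin, the deubiquitinase specific for linear chains, went from 22.9 ± 4.20 to 10.3 ± 2.79 CPM, a fall of -1.10 on the log2 scale (adjusted p = 3.33e-04) called in 20 of 20 alternatives. Cyld, a tumor suppressor deubiquitinase, went from 85.7 ± 0.413 to 59.2 ± 10.0 CPM (-0.54), a call lost with its chromosome's median removed (-0.14, 0.422) and in DESeq2 (0.0665). Sharpin is the third and is counted in both lists. Other genes of the noncanonical arm gave 0 calls of 8 tested in limma, with a median of 0.05, and 0 of 6 tested in edgeR. Before adjustment limma had 0 with p under 0.05, though with so few genes 0 calls says little. Over all tested genes limma called 11.4% up and 23.8% down, and edgeR 19.9% and 18.2%. This list leaves out the members Nfkb2 and Relb, which edgeR called up. The adaptor gene Sqstm1, on chromosome 11, fell from 382 ± 12.4 to 225 ± 20.1 CPM (-0.76), and stood at -0.32, still called, with its chromosome's median removed.

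Other textbook targets rose in 13 of 24 tested cases and 1 fell, with a median of 0.53, beside 11.4% and 23.8% of all tested genes. The list was chosen with earlier results of these data known. Without a filter on low values 13 of 36 genes rose and 1 fell. At that setting 1383 genes rose and 2940 fell in all. They were drawn from the 20756 genes in the table, less 1904 at 0 in every sample, so the shares above do not apply. With double-guide replicate 1, 2 or 3 left out, 21, 21 and 20 genes passed the filter, and 10, 11 and 9 rose. Some of the 24 thus needed a double-guide library to pass. Of the 13 that rose, Cxcl2 and Cxcl3 had a value in only 14 of 20 alternatives. The filter therefore helped to set the 13 of 24, and its distance from the shares over all tested genes was not tested. Cxcl5, a neutrophil chemokine, had the smallest adjusted p (log2 fold change 5.20 from 1.91 ± 0.467 to 106 ± 15.1 CPM), followed by the stress-response gene Ier3 (615 ± 85.7 to 1741 ± 8.75 CPM) and the cytokine Il1a (1.38 ± 0.967 to 35.7 ± 7.39 CPM), while 16 of the 40 listed genes could not be tested. Among the untested were Ccl2, Ccl20, Il6, Lcn2 and Vcam1, each with at most 2 reads in either genotype. Sod2, a mitochondrial antioxidant gene and a standard NF-κB target, stood at 93.1 ± 6.01 and 91.2 ± 3.79 CPM, a log2 fold change of -0.03 with an interval of -0.25 to 0.19. Bcl2l1, a survival gene, fell (-0.33), a call lost after centring on the median gene (0.269), with its chromosome's median removed (-0.12, 0.427) and without control replicate 1 (0.0526) or double-guide replicate 1 or 2 (0.0680 and 0.0890). Among the rises, those of Cflar and Xiap were each called in 14 of 20 alternatives. 

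**Figure D4:**
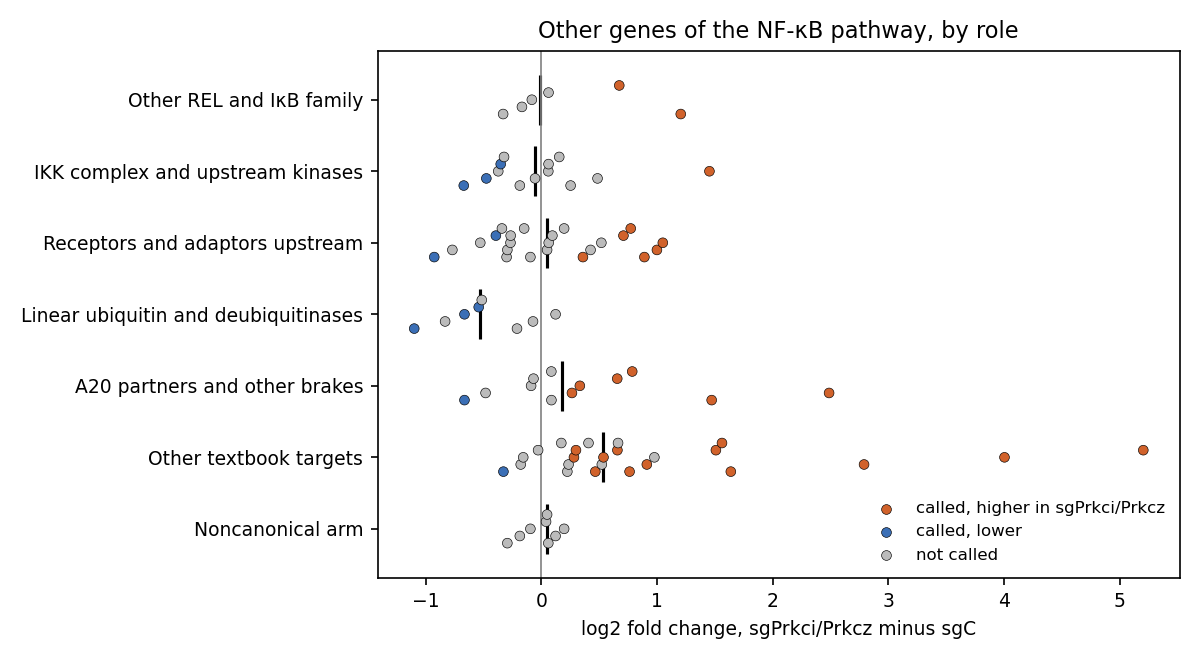
Log2 fold change of the tested genes in 7 lists of the NF-κB pathway, sgPrkci/Prkcz minus sgC. Each point is a gene, orange where it was called higher, blue where called lower and grey where not called (limma, n = 3 per genotype), and vertical bars are list medians. The targets and the A20 partners extend furthest to the right, and the linear ubiquitin and deubiquitinase list lies mostly to the left of 0.

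By level across the 6 libraries, each gene taken relative to its own sgC mean, AA467197, Cldn2 and Cdh17 lay closest to Nfkbia among 7948 other genes of at least 10 CPM. Their root mean square differences from Nfkbia were 0.15, 0.18 and 0.19 on the log2 scale. AA467197 rose from 49.1 ± 5.04 to 288 ± 12.7 CPM, the tight junction gene Cldn2 from 79.2 ± 6.27 to 466 ± 59.8 and the cadherin gene Cdh17 from 75.4 ± 9.80 to 434 ± 63.6. With samples in 2 separate groups, this likeness mainly states a similar size of change.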

How the data were processed

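The authors deposited 1 table of CPM values (read counts per 1000000 assigned), whose 6 columns were matched to samples by title; 0 other columns of values were present. Per the labels' protocols, 200 ng of RNA entered a 3′ tag kit and single reads had 75 bases. Per the submitters' processing notes the genome build is GRCm38; no aligner, counter, strand option or handling of molecular identifiers is named. Symbols came from GENCODE M21, in which 20675 identifiers matched. Dividing by the smallest step in each library turned 100% of the deposited values into whole reads (relative tolerance 1e-06). Pairs of replicates differed by more than sampling noise (1.56 to 3.40 in chi-square divided by its degrees of freedom).

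The test was limma 3.58.1 (R 4.3.3) on log2(CPM + 1) with a variance trend and robust estimation, keeping genes that reached 1 CPM in 3 or more samples, with Benjamini-Hochberg adjustment over all 12207 and a threshold of 0.05. An exact permutation test of 3 against 3 samples cannot go below 0.1. Alternatives were other scalings, filters and pseudocounts, thinning, edgeR 4.0.16 (3754 genes called) and DESeq2 1.42.0 on recovered reads, and each sample left out. On simulated data made for this comparison, over 12255 genes limma recovered 93% of 100 genes changed 2-fold and 100% of 100 changed 4-fold, with 16 false calls. The changed genes were drawn only from those with a mean of at least 10 CPM, and all genes had the same dispersion. These rates therefore do not cover Nfkbie, Icam1 and Tnf, with means of 1.35, 2.09 and 8.36 CPM. Members and lists were chosen with earlier results of these data known; the lists hold 113 genes, 8 of them in more than 1 list, and at most 3 called genes per list and direction with the smallest adjusted p were to be named. Others named were added after their values were seen. Intervals of pooled read ratios and floors cover counting error only. Intervals of limma log2 fold changes come from the fitted spread between libraries.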

Additional observations from a re-analysis of the deposited data

How the results depend on the processing

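The rises of Nfkbia, Tnfaip3, Tnf and Birc3 were called in each of 20 alternatives, with log2 fold changes of 2.28 to 2.55, 1.31 to 2.08, 1.59 to 3.30 and 1.39 to 1.87. Rela was called in 16 of 20, Relb in 9 and Nfkb2 in 6, and Nfkb1, Nfkbie and Icam1 in 0. Of 194 member values under alternatives, 19 changed side of the threshold, and 0 reversed direction with a call in either setting. Nfkbie, never called, changed sign from 0.12 to -0.42 without control replicate 1 and to -0.0057 without double-guide replicate 1. Over all genes DESeq2 called 2549, against 4300 in limma; edgeR called 1962 up and 1792 down, against 1391 and 2909. With the median change set to 0 the split was 2125 and 1756, with quantile normalization 1869 and 1936, with TMM scaling 1875 and 2127, and with chromosome medians removed 1970 and 1597. Leaving out 1 sample gave 3079 to 3978 genes and 4 to 6 members. The cause was not tested. No paired analysis was possible because the labels give the genotypes no shared replicate numbers. Depth limits Nfkbie and Icam1, with 21 reads or fewer per genotype.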
